A study of Mus musculus with 24 samples.

Results

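The mitochondrially encoded genes are the 37 genes whose symbol begins with mt-, of 53465 genes listed, and they comprise 13 protein-coding genes, 2 rRNA genes and 22 tRNA genes. They were chosen by symbol alone, with no measured value in the rule. Their RNA was measured by RNA-seq in endothelial cells, the cells that line blood vessels, sorted by their surface protein CD31 from the brains of single C57BL/6J mice after myelin had been removed. Control mice carried the floxed Bmal1 allele without Cre (Bmal1fl/fl), and mutant mice carried the same floxed allele with Tie2cre (Bmal1fl/fl; Tie2cre), in which Cre removes an exon of the clock gene Bmal1 (listed as Arntl) in cells that have used the Tie2 promoter. That promoter is active in endothelium and also in blood cell lineages, so that the deletion need not be limited to the sorted cells. All mice were kept in light and dark phases of 12 h each, with lights on at zeitgeber time (ZT) 0. Brains were taken 4 h apart, in the light phase at ZT2, ZT6 and ZT10 and in the dark phase at ZT14, ZT18 and ZT22, from 2 mice of each genotype at each time, which gives 12 control and 12 mutant libraries of 1 mouse each.

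Mitochondria keep a small circular genome of their own. It is transcribed from both strands into long precursors, which are cut at the tRNAs that lie between the other genes. The rRNAs and tRNAs serve the mitochondrial ribosome, and the proteins are subunits of the respiratory chain, which passes electrons through complexes I, III and IV, and of complex V, which makes ATP. Brain capillary endothelium is known for many mitochondria and for energy-dependent transport.

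The deposited totals lay between 6136404 and 6648311 reads per library, after the authors had normalized the libraries to similar depth, so raw reads of a gene can be compared between libraries almost as they stand. Of 53465 genes, 15493 passed the filter of the study's methods (at least 5 reads in 6 or more libraries of 1 genotype) and were tested. Reads of Arntl ranged from 1 to 468 in controls (median 166.5) and from 81 to 354 in mutants (median 242.5); reads outside the deleted exon are counted too, so this does not check the labels. The numbers in the sample titles set 3 libraries apart by a gap, 1 control of ZT2 and both mutants of ZT14, and run on without a gap over all others. Within that run the 8 libraries of ZT6 and ZT18 come before the other 13. What the numbers stand for is not given in the sources used here.

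The genes lie in tight order on the mitochondrial chromosome (MT, GRCm38), 28 on the plus strand and 9 on the minus strand, with no introns. The only protein-coding gene on the minus strand is mt-Nd6, a complex I subunit. Neighbouring genes overlap in 3 places by more than 3 bases, and these are shown because a read in such a stretch can belong to either gene. The 43 bases at MT:7927-7969 belong to both mt-Atp8 and mt-Atp6, the complex V subunits, and 7 bases at MT:10167-10173 to both mt-Nd4l and mt-Nd4, subunits of complex I. The 14 bases at MT:13552-13565 belong to mt-Nd5 on the plus strand and to mt-Nd6 on the minus strand. The library kit keeps the strand, but whether the counting used it is not given in the sources used here. The sequences below come from the GENCODE transcripts of GRCm38, in the 5′ to 3′ direction of the gene, with the overlap in capitals. mt-Atp8 is given whole (MT:7766-7969, plus strand), mt-Nd4l is given whole (MT:9877-10173, plus strand), and mt-Nd6 by its last 60 bases (MT:13552-13611, minus strand).
mt-Atp8: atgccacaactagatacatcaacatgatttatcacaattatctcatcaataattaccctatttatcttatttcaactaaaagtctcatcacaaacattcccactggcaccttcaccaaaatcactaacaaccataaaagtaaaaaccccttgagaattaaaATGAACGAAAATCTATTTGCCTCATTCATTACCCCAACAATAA
mt-Nd4l: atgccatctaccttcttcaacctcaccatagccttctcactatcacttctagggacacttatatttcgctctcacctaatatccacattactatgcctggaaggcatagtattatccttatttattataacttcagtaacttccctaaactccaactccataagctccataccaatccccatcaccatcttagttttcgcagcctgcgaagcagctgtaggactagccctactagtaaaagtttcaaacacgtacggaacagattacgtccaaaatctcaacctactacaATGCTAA
mt-Nd6, last 60 bases: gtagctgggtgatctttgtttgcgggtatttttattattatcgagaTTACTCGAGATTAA

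Reads on the mt- genes took between 2.68% and 17.4% of a library, with a median of 7.11% over the 24 libraries (mean 7.90% ± 4.25, SD, n = 24). The highest share was 6.47-fold the lowest. With times that lie 12 h apart set side by side, the control libraries were at 3.60% and 3.54% at ZT6, 3.90% and 3.60% at ZT18, 7.27% and 7.07% at ZT10, 7.07% and 11.9% at ZT22, 11.6% and 9.58% at ZT2 and 17.4% and 15.3% at ZT14. Mutants had 3.90% and 2.68% at ZT6, 3.01% and 3.68% at ZT18, 5.78% and 9.20% at ZT10, 6.92% and 7.16% at ZT22, 14.3% and 12.7% at ZT2 and 7.89% and 10.7% at ZT14. The 8 libraries of ZT6 and ZT18 were thus the 8 lowest, whatever the genotype, and the 2 controls of ZT14 the 2 highest. The mean was 3.49% ± 0.427 (SD, n = 8) at ZT6 and ZT18, 12.4% ± 3.12 (SD, n = 8) at ZT2 and ZT14, and 7.79% ± 1.90 (SD, n = 8) at ZT10 and ZT22. Counting error is small beside these differences, since the widest 95% Wilson interval of a share reached 0.0288 percentage points to either side. The share is a sum over all members and was not tested. In sorted bulk RNA, fewer cells of a type and less RNA per cell cannot be told apart.

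**Figure D1:**
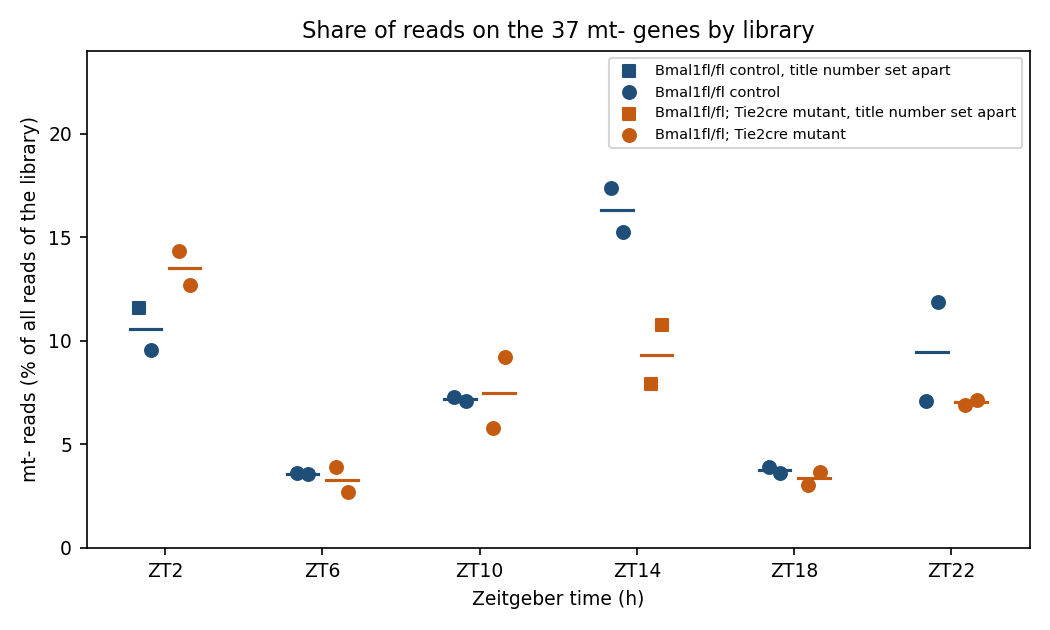
Share of each library's reads on the 37 mt- genes (%, vertical axis) by zeitgeber time (h), with 1 symbol per mouse, colour for genotype, squares for the 3 libraries whose title numbers stand apart, and bars for the mean of 2 mice. All ZT6 and ZT18 libraries lie at or below 3.90%, and all others at or above 5.78%.

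The 2 rRNAs form the core of the mitochondrial ribosome, and together they took 56.6% to 66.0% of the mt- reads (median 63.3%). mt-Rnr2, the 16S rRNA (MT:1094-2675), was among the 2 genes with the most reads in every library. Its reads in the control libraries were 122565 and 121079 at ZT6, 127027 and 114429 at ZT18, 239511 and 249222 at ZT10, 236141 and 406321 at ZT22, 393899 and 341717 at ZT2 and 555703 and 565049 at ZT14. Mutants had 126089 and 91858 at ZT6, 100568 and 129895 at ZT18, 186621 and 312017 at ZT10, 236647 and 248462 at ZT22, 500156 and 424083 at ZT2 and 264885 and 374632 at ZT14. The lowest value outside ZT6 and ZT18 (186621 reads) lay above the highest within them (129895), and the 2 controls of ZT14 were the highest of all.

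mt-Rnr1, the 12S rRNA (MT:70-1024), had fewer reads than mt-Rnr2 in each of the 24 libraries. Its reads in controls were 21013 and 16379 at ZT6, 18303 and 16913 at ZT18, 36874 and 39473 at ZT10, 38145 and 62113 at ZT22, 79042 and 57730 at ZT2 and 97054 and 91281 at ZT14. In mutants they were 17294 and 13736 at ZT6, 16770 and 19588 at ZT18, 28656 and 47402 at ZT10, 42304 and 39041 at ZT22, 86510 and 75588 at ZT2 and 51072 and 76631 at ZT14. Again no ZT6 or ZT18 library (13736 to 21013 reads) reached the others (28656 to 97054). The ratio of mt-Rnr2 to mt-Rnr1 reads was 5.83 to 7.39 at ZT6 and ZT18, 4.89 to 6.19 at ZT2 and ZT14, and 5.59 to 6.58 at ZT10 and ZT22. These ranges overlap, and the ratio was not tested. Because the kit removes ribosomal cDNA with probes, and how far these act on mitochondrial rRNA is not given in the sources used here, ratios of rRNA to mRNA are ratios of library reads.

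Levels of different genes were compared as reads per kb of gene, over 24 libraries. mt-Rnr2 had a median of 154227 reads per kb and mt-Rnr1 of 41107. Among mRNAs the order ran from mt-Co1, the catalytic subunit of complex IV (30631), and mt-Cytb, the cytochrome b of complex III (30334), through mt-Nd1 (21855), mt-Nd5 (15332), mt-Nd2 (14147) and mt-Nd4 (9736), all complex I subunits, to mt-Nd6 (3577). These first members of the order were followed at a distance by mt-Atp6 (942 reads per kb), mt-Nd3 of complex I (875.0), mt-Co2 of complex IV (556), mt-Atp8 (262), mt-Co3 of complex IV (256) and mt-Nd4l (189). Some neighbours in this order were not separated in every library: mt-Co1 lay above mt-Cytb in 18 of 24, mt-Nd5 above mt-Nd2 in 13, mt-Atp6 above mt-Nd3 in 16, mt-Nd3 above mt-Co2 in 22, mt-Atp8 above mt-Co3 in 13, and mt-Co3 above mt-Nd4l in 18. All other neighbours kept their order in 24 of 24 libraries.

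**Figure D2:**
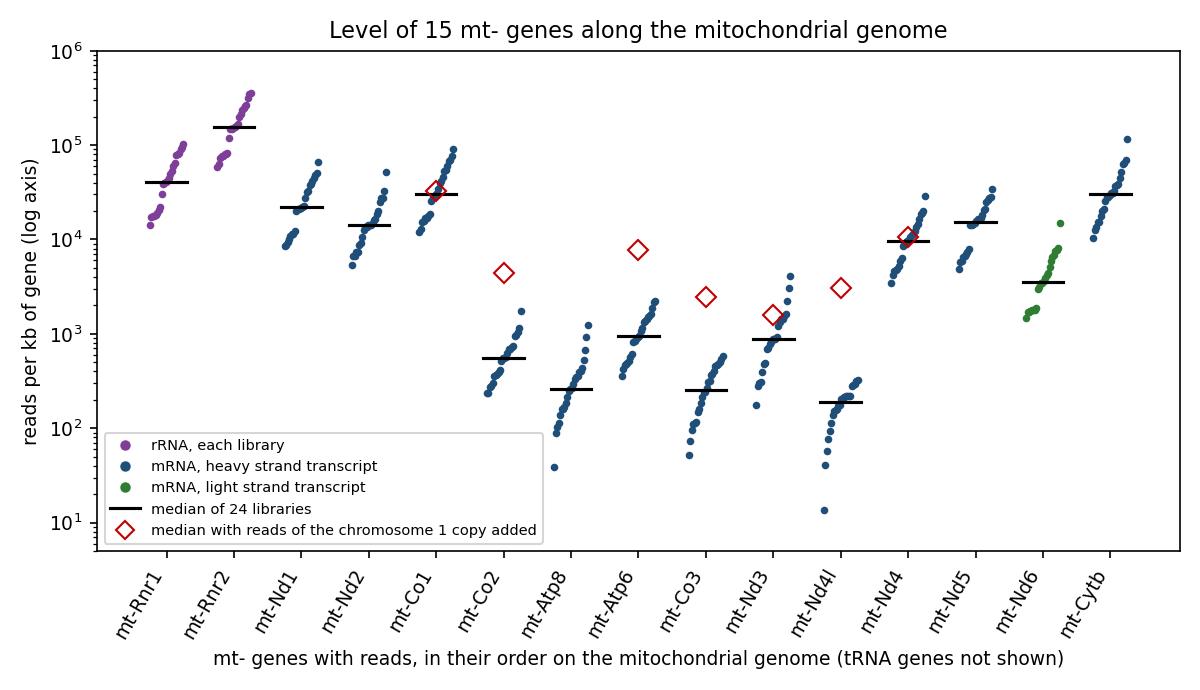
Reads per kb of gene (log axis) for the 15 mt- genes with reads, in genome order, with 1 point per library and a bar at the median of 24. Open diamonds add the reads of the chromosome 1 copy. The 6 genes from mt-Co2 to mt-Nd4l lie below the other 7 mRNAs, and the diamonds of 5 of them lie above their bars.

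The 6 mRNAs of lowest level lie next to each other on the genome, between mt-Co2 (MT:7013-7696) and mt-Nd4l (MT:9877-10173), with mt-Atp8, mt-Atp6 (MT:7927-8607), mt-Co3 (MT:8607-9390) and mt-Nd3 (MT:9459-9806) between them. In 24 of 24 libraries every one of them had fewer reads per kb than each of the other 7 mRNAs, and together they made up 0.337% to 0.432% of the mt- reads. All except mt-Atp8 have a near-identical copy among the annotated transcripts of chromosome 1, in a row of 7 unprocessed pseudogenes on its minus strand between 24611535 and 24616197 (GRCm38). Between the copies of mt-Co2 and mt-Atp6 lie 233 bases without an annotated gene, as many as lie between the matching stretches on MT, where mt-Atp8 begins, and the sequence of that gap was not searched here. The copies are 100% identical over their aligned length to mt-Nd4 (Gm28439, first 876 bases), mt-Nd4l (Gm10222), mt-Nd3 (Gm28438), mt-Co3 (Gm28437), mt-Atp6 (Gm10925) and mt-Co2 (Gm28661). The last, Gm29216, matches the end of mt-Co1 at 482 of 483 bases. The single difference is A1066T, counted from 1 at the 5′ end of mt-Co1, and is shown in capitals in the windows below, at MT:6390-6423 for mt-Co1.
mt-Co1, MT:6390-6423: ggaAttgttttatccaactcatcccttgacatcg
Gm29216, same window: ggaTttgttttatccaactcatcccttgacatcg

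Of all 100-base windows of a gene, 99.5% of mt-Co2, 99.5% of mt-Atp6, 99.9% of mt-Co3, 97.6% of mt-Nd3 and 98.5% of mt-Nd4l also occur in another annotated transcript, against 60.8% of mt-Nd4, 30.8% of mt-Co1, 3.19% of mt-Nd2 and 0% of mt-Atp8, mt-Nd1, mt-Nd5, mt-Nd6, mt-Cytb, mt-Rnr1 and mt-Rnr2. Read lengths of both 100 and 150 bases are given for these libraries, and with 150-base windows the shares were 97.0% to 99.8% for the first 5 genes, 59.2% for mt-Nd4, 23.6% for mt-Co1 and 0% for the others, mt-Nd2 among them. The copies also had reads. Gm28661 held a median of 6.89 reads for each mt-Co2 read, Gm10925 6.21 for mt-Atp6, Gm28437 7.92 for mt-Co3 and Gm10222 15.1 for mt-Nd4l, and each of these copies was above its mt- gene in 24 of 24 libraries. Gm28438 stood at 0.802 for mt-Nd3 and was above it in 4 libraries. Gm28439 and Gm29216, which cover part of mt-Nd4 and mt-Co1, stood at 0.0970 and 0.0682. With the copy's reads added, the median per kb of the mt- gene became 4422 for mt-Co2, 7827 for mt-Atp6, 2458 for mt-Co3, 1595 for mt-Nd3 and 3057 for mt-Nd4l. How reads of mt- genes and copies were divided was not tested. The level of the 5 genes with whole copies is therefore uncertain, and so is that of mt-Atp8, for which the gap between the copies was not searched. The copies on chromosome 1 held 2.67 to 3.79 reads per 100 mt- reads. Adding them moved the mt- share of a library only to between 2.77% and 18.0%. Windows were also shared by Gm13341 with mt-Co2, by Gm13340 with mt-Co1 and by Gm13339 with mt-Nd2. These annotated genes are not in the row on chromosome 1, and their reads were not added.

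All 22 tRNA genes, which decode the mitochondrial codons, were listed at 0 reads in all 24 libraries. These are mt-Ta, mt-Tc, mt-Td, mt-Te, mt-Tf, mt-Tg, mt-Th, mt-Ti, mt-Tk, mt-Tl1, mt-Tl2, mt-Tm, mt-Tn, mt-Tp, mt-Tq, mt-Tr, mt-Ts1, mt-Ts2, mt-Tt, mt-Tv, mt-Tw and mt-Ty. At these totals a count of 0 allows up to 3 reads, or 0.451 to 0.489 RPM (reads-per-million of a library's total), a limit that covers counting error only. The genes are 59 to 75 bases long, and the shortest (mt-Ts2, MT:11613-11671, plus strand) and the longest (mt-Tl1, MT:2676-2750, plus strand) are shown for their size beside the 100-base windows above. None of the 22 passed the filter, so they enter no test.
mt-Ts2: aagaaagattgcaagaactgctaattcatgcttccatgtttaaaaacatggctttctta
mt-Tl1: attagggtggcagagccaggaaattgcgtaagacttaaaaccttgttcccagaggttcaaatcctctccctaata

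By class and by complex, the make-up of the mt- reads varied much less than their total. Single genes with few reads varied more, with mt-Nd4l at 0.00243% to 0.0211% of the mt- reads. The mRNAs took 34.0% to 43.4% of the mt- reads (median 36.7%), and by complex the shares were 15.2% to 20.5% for complex I, 6.53% to 11.4% for complex III, 9.98% to 12.9% for complex IV and 0.134% to 0.187% for complex V. At ZT6 and ZT18 the mRNAs took 34.0% to 40.8% of the mt- reads and in the other 16 libraries 34.0% to 43.4%, so the classes did not separate the groups that the total separated. Complex IV took 11.6% to 12.9% at ZT2 and ZT14 and 9.98% to 11.9% at ZT10 and ZT22, with an overlap of these ranges. mt-Nd5 took 4.41% to 5.61% of the mt- reads at ZT2 and ZT14 and 5.99% to 7.27% at ZT10 and ZT22, which did not overlap, while ZT6 and ZT18 overlapped with both. For every other member with reads, the shares at ZT2 and ZT14 overlapped with those at ZT10 and ZT22. The difference in mt-Nd5 share was not tested. The first control of ZT14 stood apart, with the lowest rRNA share (56.6%) and the highest shares of mt-Cytb (11.4%) and mt-Nd6 (0.666%) of the 24 libraries.

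**Figure D3:**
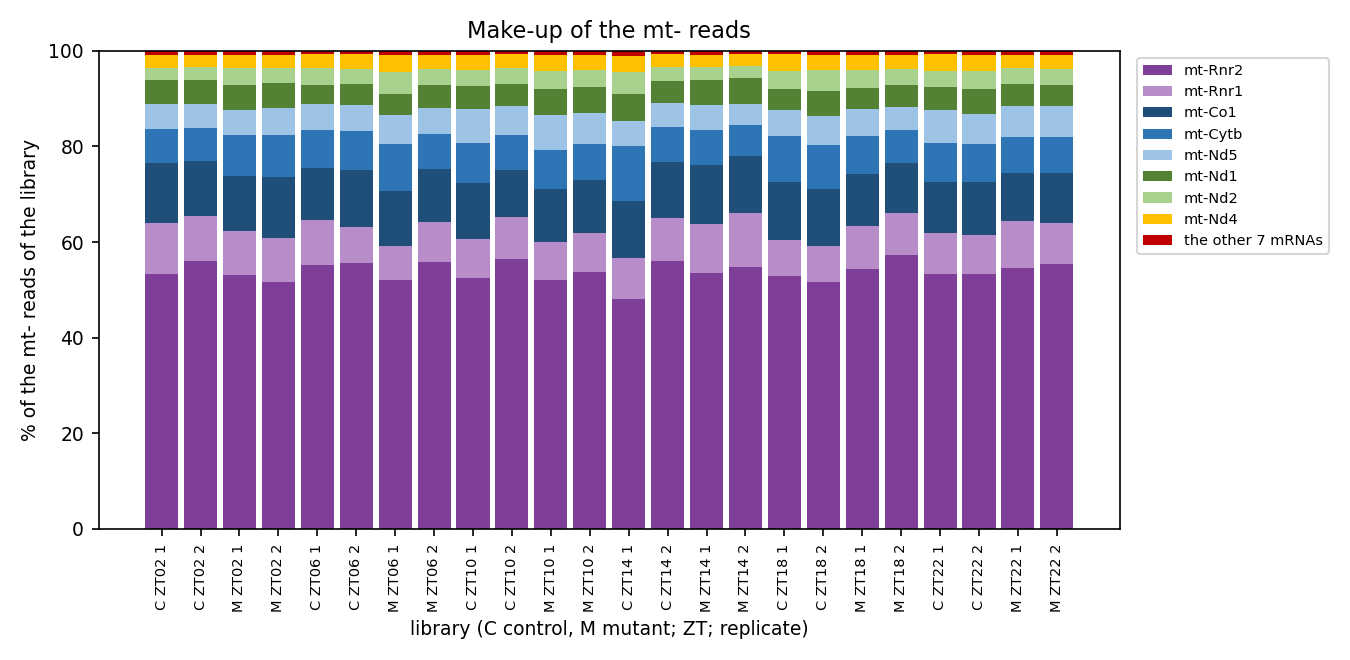
Make-up of the mt- reads (%, vertical axis) in each of the 24 libraries, stacked by gene, with the 7 mRNAs of lowest level pooled. The rRNAs take 56.6% to 66.0% in every library, including those in which the mt- total is low.

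The comparison of ZT6 and ZT18 with the other 4 time points, with genotype in the model, gives the size for each gene of the difference seen in the totals. All 15 members tested were lower at ZT6 and ZT18 (edgeR quasi-likelihood test, adjusted p under 0.05), against 10.9% of all genes tested. The log2 fold changes lay between −1.92 and −1.35, with a median of −1.62, while the median over all genes was −0.01. The difference in the mt- share was known from earlier results of these data, so these are sizes and not independent evidence. mt-Rnr1 was 3.38-fold lower (log2 fold change −1.76 ± 0.19, SE, adjusted p = 1.48e-08 by edgeR) and mt-Rnr2 2.96-fold lower (−1.56 ± 0.18, adjusted p = 2.37e-08 by edgeR). In RPM, 12 of the 15 members did not overlap between ZT6 and ZT18 and the other 16 libraries, against 2.25% of all genes. The 3 that did overlap were mt-Atp8, mt-Co3 and mt-Nd4l, which are among the members with the fewest reads.

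Among complex I subunits, mt-Nd3 had the largest difference of the mRNAs, 3.78-fold lower (log2 fold change −1.92 ± 0.30, adjusted p = 1.32e-05 by edgeR). Its reads in controls were 97 and 167 at ZT6, 62 and 173 at ZT18, 309 and 244 at ZT10, 305 and 497 at ZT22, 560 and 497 at ZT2 and 1418 and 770 at ZT14. In mutants they were 239 and 108 at ZT6, 104 and 136 at ZT18, 270 and 462 at ZT10, 282 and 304 at ZT22, 1063 and 536 at ZT2 and 325 and 419 at ZT14. The highest value at ZT6 and ZT18 (239) lay just under the lowest elsewhere (244). mt-Nd1 fell by 1.73 on the log2 scale, mt-Nd5 by 1.63, mt-Nd4 by 1.49, mt-Nd2 by 1.42 and mt-Nd4l by 1.36. mt-Nd5, with its 8976 to 14634 reads at ZT6 and ZT18 against 25911 to 61918, had the smallest adjusted p of the members (7.26e-10 by edgeR), and mt-Nd4l, with 4 to 51 against 45 to 96, the highest (0.00111).

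mt-Nd6, the member of complex I on the minus strand (MT:13552-14070), had control reads of 891 and 894 at ZT6, 933 and 900 at ZT18, 1785 and 1810 at ZT10, 1559 and 3581 at ZT22, 3405 and 2653 at ZT2 and 7688 and 3948 at ZT14. In mutants its reads were 922 and 761 at ZT6, 925 and 980 at ZT18, 2005 and 2288 at ZT10, 1645 and 1903 at ZT22, 4218 and 4040 at ZT2 and 2207 and 3035 at ZT14. No library of ZT6 or ZT18 (761 to 980) overlapped with the others (1559 to 7688), and the first control of ZT14 had more than any other library. It was 3.30-fold lower at ZT6 and ZT18 (log2 fold change −1.72 ± 0.23, adjusted p = 5.92e-07 by edgeR).

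For complex III, mt-Cytb (MT:14145-15288) had control reads of 17570 and 17375 at ZT6, 23148 and 20103 at ZT18, 37784 and 32188 at ZT10, 35716 and 59639 at ZT22, 51531 and 42110 at ZT2 and 131242 and 73902 at ZT14. Its mutant reads were 24095 and 11795 at ZT6, 14429 and 15526 at ZT18, 29162 and 43469 at ZT10, 32627 and 33783 at ZT22, 80063 and 71455 at ZT2 and 35622 and 44635 at ZT14. ZT6 and ZT18 ranged from 11795 to 24095 reads and the others from 29162 to 131242, with the top value again in the first control of ZT14. The gene was 2.89-fold lower at ZT6 and ZT18 (log2 fold change −1.53 ± 0.23, adjusted p = 3.92e-06 by edgeR).

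In complex IV, mt-Co1 (MT:5328-6872) had control reads of 23885 and 26103 at ZT6, 28760 and 26342 at ZT18, 53555 and 43594 at ZT10, 47389 and 84140 at ZT22, 92594 and 71091 at ZT2 and 139452 and 117790 at ZT14. Mutant libraries held 27565 and 18567 at ZT6, 20043 and 24089 at ZT18, 39672 and 64270 at ZT10, 44031 and 47261 at ZT22, 108757 and 104973 at ZT2 and 61128 and 82121 at ZT14. The ranges at ZT6 and ZT18 (18567 to 28760) and elsewhere (39672 to 139452) did not overlap. The gene was 3.08-fold lower at ZT6 and ZT18 (log2 fold change −1.62 ± 0.20, adjusted p = 1.68e-07 by edgeR). mt-Co2 had the smallest difference of the mRNAs. Its reads were 243 and 193 at ZT6, 252 and 189 at ZT18, 393 and 353 at ZT10, 269 and 652 at ZT22, 502 and 431 at ZT2 and 1203 and 783 at ZT14 in controls. They were 259 and 160 at ZT6, 160 and 205 at ZT18, 286 and 508 at ZT10, 477 and 381 at ZT22, 662 and 710 at ZT2 and 380 and 477 at ZT14 in mutants. The ranges were close, with 160 to 259 at ZT6 and ZT18 and 269 to 1203 elsewhere, and the gene was 2.55-fold lower (log2 fold change −1.35 ± 0.21, adjusted p = 1.15e-05 by edgeR).

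mt-Co3, the third complex IV subunit, had control reads of 75 and 57 at ZT6, 91 and 116 at ZT18, 250 and 170 at ZT10, 189 and 394 at ZT22, 378 and 292 at ZT2 and 370 and 427 at ZT14. Mutants gave 125 and 41 at ZT6, 87 and 146 at ZT18, 88 and 191 at ZT10, 319 and 211 at ZT22, 244 and 459 at ZT2 and 286 and 359 at ZT14. Here the ranges overlapped, with 41 to 146 at ZT6 and ZT18 and 88 to 459 elsewhere, and the first mutant of ZT10, at 88, was the only library outside ZT6 and ZT18 in their range. Its log2 fold change was −1.63 ± 0.24 (adjusted p = 5.18e-06 by edgeR). In complex V, mt-Atp6 fell by 1.46 (244 to 412 reads against 564 to 1524) and mt-Atp8 by 1.75 ± 0.35 (adjusted p = 0.000427 by edgeR). mt-Atp8 reads were 33 and 38 at ZT6, 28 and 54 at ZT18, 50 and 68 at ZT10, 72 and 137 at ZT22, 60 and 34 at ZT2 and 251 and 88 at ZT14 in controls. In mutants they were 23 and 21 at ZT6, 8 and 18 at ZT18, 33 and 53 at ZT10, 82 and 73 at ZT22, 188 and 109 at ZT2 and 44 and 80 at ZT14. At 8 to 251 reads per library it was among the members with the largest errors, and ZT6 and ZT18 (8 to 54) overlapped with the others (33 to 251).

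The direction was the same within each genotype. In controls alone 14 of 15 members were lower (edgeR, background 5.52%), all but mt-Atp8 (adjusted p = 0.101), and in mutants alone 14 of 15 (background 7.31%), all but mt-Nd4l (adjusted p = 0.0571). No member had a genotype difference that itself differed between ZT6 and ZT18 and the other times by edgeR (interaction, 0 of 15, background 0%). The adjusted p was 1.00 for each, 0 members had an unadjusted p under 0.05, and DESeq2 also called 0. The i5 index, the library barcode shared by all ZT6 and ZT18 libraries, was also used for the controls of ZT2 and ZT10, while in mutants it marks the ZT6 and ZT18 libraries alone. With it as a covariate 10 of 15 members were lower (background 5.24%). mt-Nd2, mt-Co2, mt-Atp8, mt-Cytb and mt-Nd4l did not pass, with log2 fold changes from −1.29 to −0.53.

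Marker genes of other cell types moved at the same time points. Microglia markers, here the summed level of 9 genes, were at 195 to 319 RPM at ZT6 and ZT18 and at 1694 to 4580 in the other 16 libraries, and 9 of 9 were lower. Astrocyte markers were at 794 to 1285 against 1736 to 3465 (6 of 8 lower), oligodendrocyte markers at 360 to 727 against 844 to 2720 (6 lower of 8, of which 7 were tested) and neuron markers at 34.1 to 72.4 against 53.4 to 208 (7 of 8 lower). None of the microglia, astrocyte or endothelial markers was at 0 in any library. Up to 4 of 8 oligodendrocyte and up to 3 of 8 neuron markers were at 0 in single libraries, as was 1 platelet or 1 pericyte marker in some. Endothelial markers were at 20459 to 21685 against 13228 to 18700 RPM (7 of 10 higher), and pericyte and smooth muscle markers at 2407 to 3882 against 1508 to 2973 (8 of 9 higher). Red blood cell markers had 243 to 794 against 385 to 1362 (5 of 5 lower), and platelet markers 8.20 to 22.9 against 10.4 to 73.7 (0 of 4 passed). Genes known to respond to cell isolation summed to 8893 to 11810 against 3020 to 12092 (6 of 9 higher). With the summed oligodendrocyte, astrocyte and microglia markers as a covariate, chosen after seeing the data, 0 of 15 members and 0% of all genes were called by edgeR, 0 members had an unadjusted p under 0.05, and the median log2 fold change of the members was −0.34. Each list in the covariate separated ZT6 and ZT18 from the other libraries, so the parts of covariate and time points cannot be told apart.

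**Figure D4:**
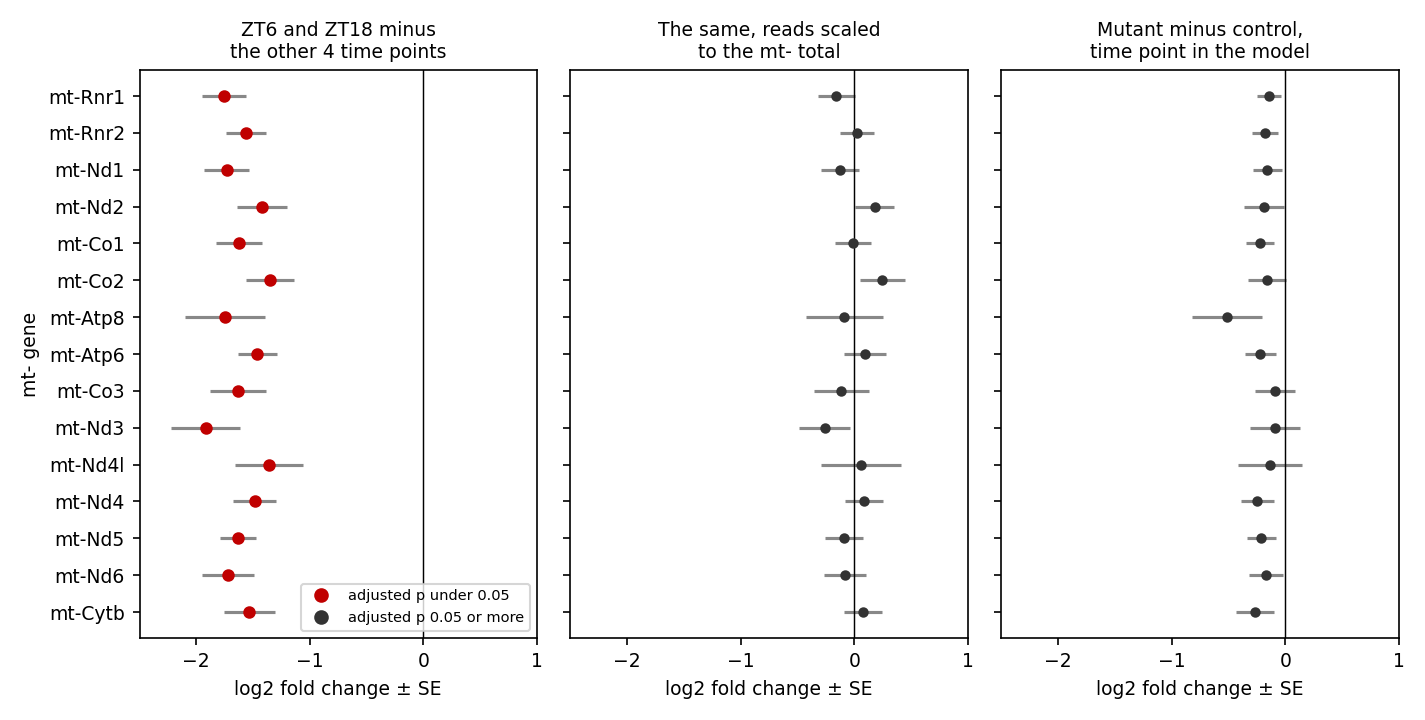
Log2 fold changes ± SE (horizontal axis) of the 15 tested mt- genes, from left to right for ZT6 and ZT18 against the other time points, for the same contrast with reads scaled to the mt- total, and for mutant against control. Red points have an adjusted p under 0.05 by edgeR, and these are all 15 of the left panel and none of the others.

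Scaled to the mt- total of each library, the members were read against each other. By edgeR 0 of 15 then differed at ZT6 and ZT18, 0 had an unadjusted p under 0.05, and the log2 fold changes ran from −0.26 ± 0.23 (SE) for mt-Nd3 to 0.25 ± 0.20 for mt-Co2, with adjusted p from 0.248 to 0.952. mt-Rnr2, which holds most of that total, was at 0.02 ± 0.15 and mt-Rnr1 at −0.16 ± 0.17. This scaling moved the median of all genes to 1.44, and 78.7% of all genes were called under it. Fits on this scale draw their errors partly from the spread of all genes. The log2 share of mt-Rnr2 in the mt- reads had an SD of only 0.055 over the 24 libraries, against its error of 0.15 here. Small differences in share can therefore be missed, and 0 calls do not show that the shares were equal. Between genotypes on the same scale 0 of 15 members were called by edgeR (0 with an unadjusted p under 0.05, background 0.168%), and log2 fold changes ran from −0.30 for mt-Atp8 to 0.10 for mt-Co3.

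Among the other 16 libraries a second step was present, tested after seeing the data. At ZT2 and ZT14 against ZT10 and ZT22, 7 of 15 members were higher by edgeR, against 0.29% of all genes. These were mt-Nd3 (2.14-fold, log2 fold change 1.10 ± 0.26, SE), mt-Nd6 (1.92-fold, 0.94 ± 0.18), mt-Rnr1 (1.88-fold, 0.91 ± 0.13), mt-Co1 (1.87-fold, 0.90 ± 0.15), mt-Cytb (1.78-fold, 0.83 ± 0.20), mt-Nd1 (1.74-fold, 0.80 ± 0.15) and mt-Rnr2 (1.65-fold, 0.72 ± 0.14). Adjusted p was 0.000257 for mt-Rnr1, 0.00127 for mt-Co1, 0.00766 each for mt-Rnr2, mt-Nd1 and mt-Nd6, and 0.0364 for mt-Nd3 and mt-Cytb. Over 30 alternatives mt-Nd3 lost its call in 8 and mt-Cytb in 9. The other 8 did not pass, with log2 fold changes from 0.20 (mt-Nd4l) to 0.66 (mt-Co2, mt-Atp8 and mt-Co3). In reads, mt-Rnr1 ranged from 51072 to 97054 (median 77836.5) at ZT2 and ZT14 and from 28656 to 62113 (median 39257) at ZT10 and ZT22, and mt-Co1 from 61128 to 139452 (median 98783.5) and from 39672 to 84140 (median 47325). In RPM the groups overlapped for each of the 15 members, and 1 of the 15493 genes tested was higher without overlap (0.00645%). Endothelial, astrocyte, microglia and red blood cell markers had 0 genes passing in this contrast. Of the oligodendrocyte markers 2 were higher (summed level 1392 to 2720 RPM against 844 to 1674). Only 1 neuron marker passed, but all 8 had log2 fold changes above 0 (0.29 to 1.41, median 1.21). Neuron sums were 109 to 208 RPM against 53.4 to 114. The 5 red blood cell markers ran from 0.35 to 0.81, and the 9 microglia markers the other way, from −0.68 to −0.17. Of 9 cell isolation genes 8 were lower (summed level 3020 to 6221 RPM at ZT2 and ZT14, 4203 to 12092 at ZT10 and ZT22). Among the 30 alternatives was a fit with the summed oligodendrocyte, astrocyte and microglia markers as a covariate, and members were still called in it. The part of the endothelial, neuron, red blood cell and cell isolation lists in the result was not tested.

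**Figure D5:**
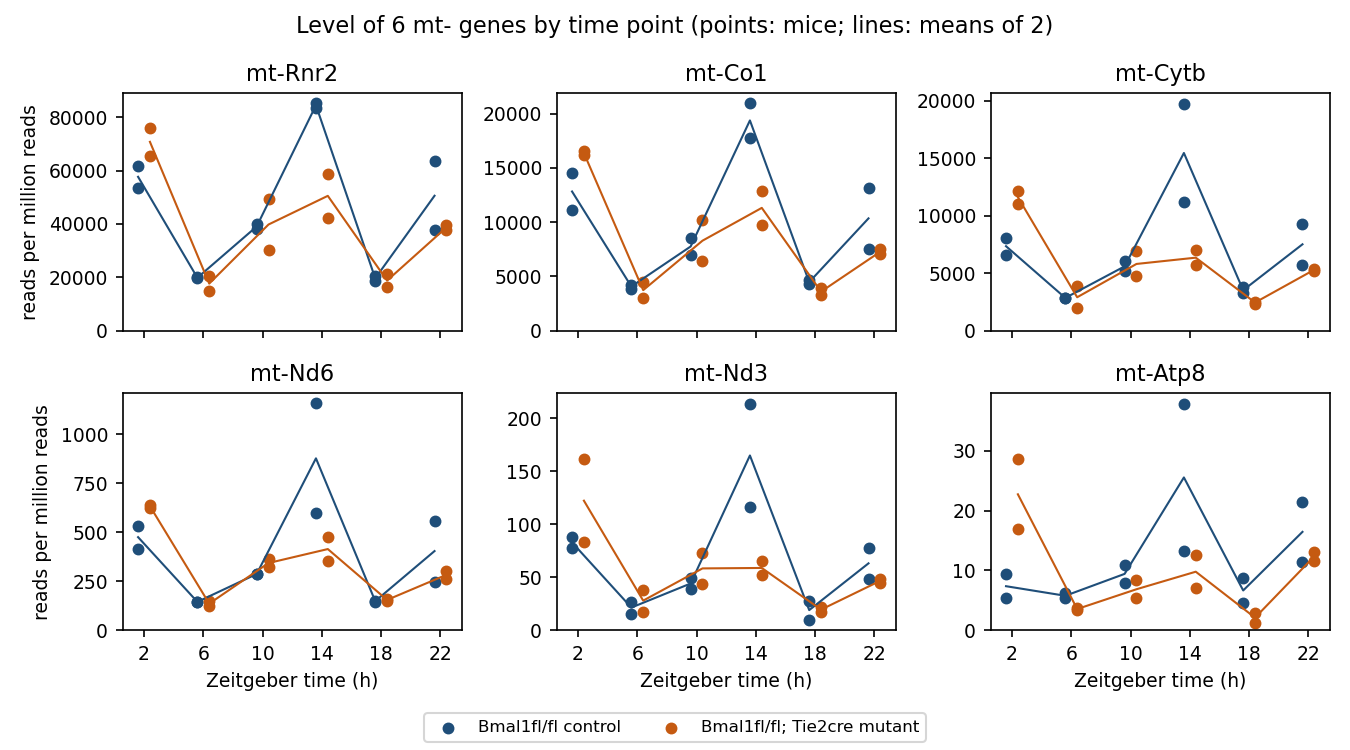
RPM (reads-per-million, vertical axes, each from 0) of 6 mt- genes by zeitgeber time (h), with 1 point per mouse and lines through the means of 2 mice. Low values at ZT6 and ZT18 recur in all 6 panels and both genotypes, and the controls of ZT14 lie above the mutants of ZT14.

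Whether loss of Bmal1 moved the level of the members over all time points was tested with time point in the model. By edgeR 0 of 15 members differed between genotypes (background 0.271%), 0 had an unadjusted p under 0.05, and DESeq2 called 0 as well. With no filter on low counts 4 members were called, among 141 genes. All 15 log2 fold changes were below 0, from −0.51 ± 0.31 (SE) for mt-Atp8 to −0.09 ± 0.18 for mt-Co3, with a median of −0.18 and adjusted p from 0.775 to 0.975. mt-Rnr1 was at −0.14 ± 0.10, mt-Rnr2 at −0.18 ± 0.11, mt-Co1 at −0.22 ± 0.12, mt-Nd6 at −0.17 ± 0.15 and mt-Cytb at −0.27 ± 0.16. The mean mt- share was 8.48% ± 4.73 (SD, n = 12) in controls and 7.33% ± 3.83 (SD, n = 12) in mutants, and the ranges overlapped (3.54% to 17.4% and 2.68% to 14.3%).

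Taken at single time points, in a fit added after seeing the data, 4 of 15 members were lower in mutants at ZT14 by edgeR (background 0.136%), all complex I or III subunits. mt-Nd2 had 53308 and 28685 reads in controls and 13097 and 17060 in mutants (log2 fold change −1.55 ± 0.30, SE, adjusted p = 0.0191). mt-Cytb had 131242 and 73902 against 35622 and 44635 (−1.46 ± 0.28, adjusted p = 0.0191). mt-Nd5 had 61918 and 51705 against 25911 and 30130 (−1.13 ± 0.22, adjusted p = 0.0203). The fourth was mt-Nd4, with 39739 and 27374 against 13273 and 17077 (−1.25 ± 0.27, adjusted p = 0.0408). In each of these 4 genes the first control was higher than the second. The median over the 15 members was −1.13. The largest change was that of mt-Nd3 (−1.66), which was not called, and the smallest that of mt-Nd4l (−0.16). Members outside complexes I and III were lower too, without passing, from −0.41 for mt-Co3 to −1.56 for mt-Atp8. The calls therefore do not set complexes I and III apart from the other members. At ZT2 (background 0%), ZT6 (0.0129%), ZT10 (0.0645%), ZT18 (0%) and ZT22 (0%), edgeR called 0 members. Median log2 fold changes at these times were 0.48, 0.01, 0.11, −0.26 and −0.51. By edgeR 4, 0, 0, 1 and 5 members had an unadjusted p under 0.05. The share of all genes at that unadjusted limit is not given here, so these counts are not read as a result about the members.

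The number of calls at ZT14 changed with single libraries. Both mutants of ZT14 are among the 3 libraries whose title numbers stand apart. The third is a control of ZT2, and only the controls of ZT2 hold 1 library set apart and 1 that is not. A covariate of title numbers is thus set by those controls alone. It cannot decide what the numbers bring at ZT14. With title numbers as a covariate 0 members and 0 of 15493 genes passed by edgeR. The median log2 fold change of the members was −1.45, and 12 members and 1024 of all genes had an unadjusted p under 0.05. Leaving out 1 library of ZT14 sets 1 mouse against 2, with the lone mouse assumed to vary like the other groups. Without the first control, the first mutant or the second mutant, none of the 4 calls was kept, with member medians from −1.35 to −0.91. Without the second control 5 members and 64 of all genes passed. The genotype difference at ZT14 minus that at the other 5 time points was called for 0 of 15 members by edgeR (background 0%). Adjusted p ran from 0.124 upward by edgeR, and 12 members and 1244 of all genes had an unadjusted p under 0.05. DESeq2 called 7 members and 74 of all genes. At ZT14 the endothelial markers summed to 15495 and 16381 RPM in controls and 18700 and 18454 in mutants, and the astrocyte markers to 2308 and 2801 against 1927 and 1795. The microglia markers summed to 2354 and 1921 against 2758 and 2710, the neuron markers to 144 and 151 against 113 and 130, and the platelet markers to 14.0 and 10.4 against 22.0 and 31.3. The cell isolation genes summed to 4129 and 4102 against 5186 and 5716. For all these lists the controls and mutants of ZT14 did not overlap, while the pericyte and smooth muscle, oligodendrocyte and red blood cell lists overlapped. With the summed oligodendrocyte, astrocyte and microglia markers as a covariate, the same 4 members and 30 of all genes passed by edgeR. An unadjusted p under 0.05 was reached by 13 members and 1401 of all genes, and the median of the members was −1.02. The part of the other lists in the result was not tested.

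A rhythm with a period of 24 h was tested for each genotype by a cosine and a sine. In controls 0 of 15 members passed by edgeR (background 0.213%), in mutants 0 (background 0.0516%), and the difference of rhythm between genotypes was called for 0 (background 0%). An unadjusted p under 0.05 was reached by 0, 0 and 1 members, the last being mt-Atp8, and DESeq2 called 0 in each. With no filter on low counts 10, 3 and 10 members were called, among 199, 75 and 52 genes. ZT6 and ZT18 lie 12 h apart, and so do ZT2 and ZT14 and ZT10 and ZT22. A level shared by such pairs has no 24 h component and adds to the spread of this test.

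Nuclear genes that serve the mitochondrial genome were read in the same contrasts. At ZT6 and ZT18, where 10.9% of all genes were lower and 5.85% higher, 0 of 15 genes of mtDNA transcription and replication passed (edgeR, median log2 fold change 0.06), among them Polrmt, the mitochondrial RNA polymerase (0.0041 ± 0.16, SE), and Tfam, which packs the DNA and starts transcription (0.20 ± 0.17). Of the genes for processing, stability and decay of mitochondrial RNA 0 of 19 passed (median −0.02), of the mitochondrial ribosome 0 of 78 tested of 83 listed (0.03) and of the mitochondrial aminoacyl-tRNA synthetases, which charge the tRNAs, 0 of 17 (−0.09). Among 24 nuclear partners of the mt- proteins in complexes I, III, IV and V only Cyc1, the cytochrome c1 of complex III, passed (−0.65 ± 0.17, adjusted p = 0.00738), and the median was −0.10. Among 6 regulators, Ppargc1a, a coactivator of mitochondrial genes, was lower (−1.32 ± 0.43, adjusted p = 0.0299) and Gabpa, a transcription factor of respiratory genes, higher (0.31 ± 0.09, adjusted p = 0.0207). In the genotype contrast, in ZT2 and ZT14 against ZT10 and ZT22 and in the rhythm tests, 0 genes of these lists passed. The difference between these lists and the members was not itself tested.

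The 7 copies on chromosome 1 moved in the same direction as the mt- genes. Because they are identical or nearly identical to these over their aligned length, their reads are not a separate measurement. How reads were divided between them was not tested. At ZT6 and ZT18 all 7 were lower, with log2 fold changes from −1.80 to −1.41, against 10.9% of all genes, and 6 of 7 did not overlap between the groups, against 2.25%. At ZT2 and ZT14 2 of 7 were higher than at ZT10 and ZT22, against 0.29%, Gm28437 (log2 fold change 0.92) and Gm29216 (0.89, each with adjusted p = 0.00425 by edgeR). Between genotypes 0 of 7 passed (background 0.271%, median −0.22).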

How the data were processed

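RNA from CD31-sorted brain endothelial cells of 24 mice was sequenced with a strand-specific total RNA kit. Alignment by the authors was to GRCm38 with STAR 2.5.3a (SAMtools 1.3.1 is also named in the submitters' processing notes). They then counted reads on Ensembl genes, normalized them with PORT and deposited whole-number counts per gene. Because PORT resamples libraries to similar depth, the original depth is not in these counts, and intervals and floors (3 reads, 95% Wilson) cover counting error only.

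Groups and time points came from the sample labels. Replicate numbers are not in the labels and follow the order of the title numbers within a group. The filter asked for at least 5 reads in 6 or more libraries of 1 genotype and left 15493 genes, whose counts entered edgeR's quasi-likelihood test with TMM factors (edgeR 4.0.16, R 4.3.3), with p-values adjusted over all of them by Benjamini and Hochberg's method. The time-of-day test of the study (meta2d) was not rerun; a 24 h cosine and sine took its place. All replicates are separate mice. The biological coefficient of variation was 42.4%. The scripts were tested on simulated counts.

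All 37 genes are accounted for. Values in every library are given for both rRNAs, mt-Co1, mt-Nd6, mt-Cytb and the mRNAs with the largest and smallest change in the ZT6 and ZT18 contrast and in the genotype contrast; no tRNA passed the filter. Other genes come from lists of markers and of nuclear mitochondrial genes. The members, lists and comparisons were chosen with earlier results of these data known. The chromosome 1 copies, the contrast of ZT2 and ZT14 with ZT10 and ZT22, the fits at single time points, the marker covariate and the 150-base windows were added after seeing the data. Sequences and copies were read from the GENCODE transcripts of GRCm38, so unannotated copies were not searched, with Python 3.11.15 and Biopython 1.88.

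Alternatives were other filters, normalizations (DESeq2 size factors, library totals, TMM without the mt- genes), DESeq2 1.42.0, covariates (i5 index, title numbers in 3 runs, of which that of ZT6 and ZT18 is set apart by time point only, markers), the replicate number as a block, subsets of time points and genotypes, and each library left out in turn. Mice with the same replicate number did not deviate together between genotypes (correlations of −0.0087 to 0.015), so no pairing by this assigned order was seen. Which mice belong to which of the independent experiments named by the paper is not given in the sources used here.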

Additional observations from a re-analysis of the deposited data

How the results depend on the processing

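The 15 calls of the ZT6 and ZT18 contrast stood at 15 in every fit that left out 1 library and in the fit with the replicate number as a block (15 of 15), and at 0 with the marker covariate, under which mt-Nd2 (0.11), mt-Atp6 (0.25), mt-Nd4 (0.31) and mt-Nd4l (0.19) had log2 fold changes above 0; marker level and time point cannot be told apart there. The genotype contrast gave 0 members under the block and without any 1 library, and 4 with no filter on low counts, where 141 of 25174 genes were called. Without that filter the 24 h rhythm called 10 members and 199 genes in controls, 3 members and 75 genes in mutants, and 10 members and 52 genes for the difference of genotypes; the cause was not tested. Within ZT6 and ZT18 alone the genotype log2 fold changes of mt-Co3 (0.28), mt-Nd3 (0.25) and mt-Nd6 (0.012) turned positive. Over the fits that left out 1 library, the genotype log2 fold change of mt-Nd3 ran from −0.21 to 0.048 and was above 0 without the first control, the first mutant or the second mutant of ZT14.

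At ZT14, 4 members were lower in mutants, 0 with title numbers as a covariate (0 of all genes, median of the members −1.45 against −1.13), 10 by DESeq2 (169 of all genes), and 0 to 5 with 1 library of ZT14 left out, which leaves a lone mouse assumed to vary like the other groups (0 without the first control, or without the first or the second mutant). The title number covariate is set there by the controls of ZT2 alone. mt-Nd4l, never called at ZT14, turned positive with library totals (0.014), with the marker covariate (0.024) and without the second control. It ran from −0.51 to 0.34 with 1 library of ZT14 left out. The ZT14 difference minus that at the other times gave 0, but 7 by DESeq2 (74 of all genes). Its median over the members ran from −1.29 to −0.87 with 1 library of ZT14 left out, against −1.10. The 7 members higher at ZT2 and ZT14 than at ZT10 and ZT22 became 5 to 8 without 1 library; mt-Nd3 lost its call in 8 and mt-Cytb in 9 of 30 alternatives.

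The mean mt- share was 7.49% to 8.13% over all libraries but 1, 3.43% to 3.61% at ZT6 and ZT18 and 9.63% to 10.4% elsewhere. With mRNAs alone the share was 2.97% over all libraries, 1.31% at ZT6 and ZT18 and 3.79% elsewhere, and with rRNAs alone 2.18% and 6.32%. Depth limits the precision for mt-Atp8 and mt-Nd4l, with single libraries at 8 and 4 reads. Why the tRNA genes were at 0 was not tested.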
